A study of Mus musculus with 19 samples.

Results

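The 10 epithelial genes *Krt5*, *Krt8*, *Krt18*, *Krt19*, *Epcam*, *Cdh1*, *Cldn8*, *Pdzk1ip1*, *Elf3* and *Trp63* were examined in mouse neuroblastomas, first in 3 pelvic against 3 adrenal tumors of the same mice and then in all 19 tumors. They were chosen by name, with their high level in the pelvic tumors already known, so that every value of the pelvic against adrenal contrast is a description of them and no test of them is reported for it. All 10 were found by symbol among the 35825 genes of the count table and in the variance-stabilized table. The tumors carried the *R26.FSF.FGFR1-N546K* transgene, which encodes FGFR1 N546K, and *Th-IRES Cre*, each as tg/wt, so that the kinase was switched on in cells that express *Th*, the gene of tyrosine hydroxylase. The 11 *FGFR1;MYCN* tumors also carried *Th-MYCN* tg/wt and came from 8 mice of 18 to 21 days. Of these mice, 3 gave both a pelvic tumor and a tumor labelled kidney, which the study's sample list names adrenal (mouse 23 at 21 days, mouse 36 at 20 days and mouse 84 at 19 days), and the tumors of the other 5 mice had no site label. The 8 *FGFR1* tumors, without *MYCN*, were 4 of 6 or 7 days and 4 of 14 days. The labels do not say how the tumors fell into litters or batches, and p-values measure the spread between these tumors. mRNA of each tumor was sequenced as 1 bulk library, with 40010738 to 75882643 estimated counts.

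Epithelial cells line surfaces, tubes and glands, where keratin filaments stiffen them and E-cadherin, EpCAM and claudins join them to their neighbours. Simple epithelia of the gut, liver, kidney tubules and ducts use keratins 8 and 18, and some of them also keratin 19. Keratin 5 and p63 instead mark the basal layer of stratified epithelia such as skin, prostate and urothelium. Neuroblastoma arises from the sympathoadrenal lineage of the neural crest, which is not epithelial, and its tumors grow at the adrenal gland or along the sympathetic trunk down to the pelvis. The defining genes of that lineage were present here, as all 10 sympathoadrenal genes were above 1 CPM (counts scaled to the same library total) in each tumor except that of mouse2149, where 9 were. The library of mouse2149, a *FGFR1;MYCN* tumor with no site label, stood apart from the rest: 11 exocrine pancreas genes summed to 179000 CPM and 9 liver genes to 140000 CPM in it, and values that rest on this library are given with and without it. In bulk tissue, fewer cells of a type and less RNA per cell cannot be told apart.

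Of the 10 genes, placed on GRCm38, only *Krt8* and *Krt18*, whose proteins pair into 1 filament, are near each other, 23697 bases apart on chromosome 15. Exons of *Krt5*, *Krt8* and *Elf3* share 129, 101 and 162 bases with a gene on the opposite strand, so their values are uncertain by the reads of these stretches. Promoter windows were taken from RefSeq (GRCm38.p6) because the genes were high in the same tumors, and 6 of the 10 genes matched an entry. The 250 bases before the start were searched on both strands for CACCTG, the E-box that the repressors ZEB and SNAI bind, and 5 of the 6 windows held it, against 17.2% of 32851 windows of this length in the whole table. Windows are set from RefSeq starts, and that of *Krt8* holds 140 bases of the first exon annotated by GENCODE, in which its E-box lies. *Epcam* held 2 copies and *Pdzk1ip1* none. The TATA box TATAAA was in 0 of the 6 windows (12.4% of all) and the GRHL site AACCNGTT in 0 of the 6 (1.8% of all), while the AP-2 site GCCNNNGGC was in 1 of the 6 (13.7% of all), that of *Krt18*, apart from its E-box. A match is a description of the letters only, and binding was not measured. The windows of *Krt5*, *Krt18*, *Epcam* and *Elf3* are shown for that shared motif, 5′ to 3′ on the strand of the gene, cut where annotated exons begin, with capitals for the E-box or its reverse complement and, in *Krt18*, also for the AP-2 site.
Krt5, chr15:101712906-101713155, minus strand: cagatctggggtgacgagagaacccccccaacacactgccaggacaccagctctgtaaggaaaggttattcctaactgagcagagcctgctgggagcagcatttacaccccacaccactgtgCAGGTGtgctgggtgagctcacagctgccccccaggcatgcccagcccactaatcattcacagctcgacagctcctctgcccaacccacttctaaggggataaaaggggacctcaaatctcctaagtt
Krt18, chr15:102027966-102028179, plus strand: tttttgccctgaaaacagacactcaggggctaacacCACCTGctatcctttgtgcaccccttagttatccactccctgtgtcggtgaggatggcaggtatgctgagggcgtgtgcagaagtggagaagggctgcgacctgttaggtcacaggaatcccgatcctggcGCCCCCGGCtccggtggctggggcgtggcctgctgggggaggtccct
Epcam, chr17:87635729-87635978, plus strand: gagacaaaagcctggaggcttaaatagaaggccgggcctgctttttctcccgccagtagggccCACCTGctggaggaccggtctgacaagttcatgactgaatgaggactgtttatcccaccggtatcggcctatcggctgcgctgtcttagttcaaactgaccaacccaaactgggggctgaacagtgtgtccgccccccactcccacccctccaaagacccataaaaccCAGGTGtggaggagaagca
Elf3, chr1:135258569-135258722, minus strand: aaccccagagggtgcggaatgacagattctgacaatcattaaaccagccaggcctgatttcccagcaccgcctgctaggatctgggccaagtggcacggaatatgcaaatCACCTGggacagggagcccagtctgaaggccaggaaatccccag

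The keratins of simple epithelia were higher in the pelvic than in the adrenal tumors of the same mice. *Krt8* (chr15:101996698-102004482) encodes the type II keratin of simple epithelia, and its level was 9.04, 61.6 and 26.1 CPM in the pelvic tumors of mice 23, 36 and 84 and 0.425, 1.06 and 1.14 CPM in their adrenal tumors. Its partner *Krt18* (chr15:102028180-102032027), a type I keratin, was at 8.32, 75.0 and 5.08 CPM in the pelvic and at 0.182, 0.447 and 1.30 CPM in the adrenal tumors of mice 23, 36 and 84. *Krt19* (chr11:100140810-100148665), a keratin of ducts and simple linings, was at 17.4, 42.2 and 17.1 CPM against 0.607, 0.383 and 1.98 CPM. For each of these keratins the 3 pelvic values lay above the 3 adrenal values, and the pelvic tumor of mouse 36 was the highest of the 3. The pelvic minus adrenal difference on the log2 CPM scale was 4.87 ± 0.82 for *Krt8*, 4.83 ± 2.70 for *Krt18* and 4.84 ± 1.79 for *Krt19* (mean ± SD, n = 3 mice). Counts of *Krt8* and *Krt18* ran close to parity in most tumors, with a ratio of *Krt8* to *Krt18* counts between 0.822 and 2.38 in 18 of the 19, and the exception was the pelvic tumor of mouse 84, where it was 5.14.

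The basal keratin showed the widest gap of the 10 genes. *Krt5* (chr15:101707070-101712898) is the type II keratin of basal cells, and it had 76, 1590 and 426 counts in the pelvic tumors of mice 23, 36 and 84 (1.51, 29.4 and 6.87 CPM) against 2, 1 and 2 counts in their adrenal tumors (0.0243, 0.0213 and 0.0329 CPM). The difference was 6.82 ± 2.17 on the log2 CPM scale, whose prior count of 2 draws low values together. As ratios of CPM the pelvic tumor was 62.2 times the adrenal one in mouse 23 (95% interval 16.6 to 523) and 209 times in mouse 84 (57.4 to 1730), with exact conditional binomial intervals that cover counting error only. In mouse 36 the ratio rested on 1 adrenal count and its interval ran from 248 to 54600. *Krt5* was at or below 3 counts in 13 of the 16 tumors not labelled pelvic, most of which have no site label. The exceptions were mouse 17 with 33 counts and the *FGFR1* tumors T11 and T3 with 142 and 65.

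Among the adhesion and junction genes, *Epcam* was the most even across mice and *Cdh1* the least. *Epcam* (chr17:87635979-87651129) encodes a surface adhesion molecule of epithelial cells, and it was at 5.48, 6.84 and 10.7 CPM in the pelvic tumors of mice 23, 36 and 84 and at 0.425, 0.468 and 1.05 CPM in the adrenal ones. Its difference of 3.55 ± 0.24 on the log2 CPM scale had the smallest SD of the 10, and it was the only gene with its highest pelvic value in mouse 84. *Cdh1* (chr8:106603351-106670246) encodes E-cadherin, the adhesion receptor of adherens junctions, and it was at 3.77, 14.8 and 7.74 CPM against 2.33, 0.0638 and 0.889 CPM. The tumors of mouse 23 thus differed by a factor of 1.62, while those of mouse 84 differed by a factor of 8.71, and the 3 pelvic values still lay above the 3 adrenal values. *Cldn8* (chr16:88560828-88563183) encodes a tight junction claudin known from the collecting duct and the colon, and its 5.70, 12.4 and 4.32 CPM in the pelvic tumors stood against 0.0971, 0 and 0.115 CPM. In mouse 36 the adrenal tumor had 0 counts of *Cldn8*. Against a floor of 3 counts in that library the pelvic tumor was 194-fold higher, and the lower 95% limit of the ratio was 158.

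*Pdzk1ip1* (chr4:115088708-115093899) encodes a small membrane protein, known as MAP17, that binds PDZ proteins in epithelia such as the proximal tubule. It was at 2.72, 5.51 and 1.63 CPM in the pelvic tumors of mice 23, 36 and 84 and at 0.0486, 0 and 0.0823 CPM in the adrenal tumors. The pelvic tumor of mouse 36 was 86.3-fold higher against the same floor (lower 95% limit 69.8), and those of mice 23 and 84 were 56.0-fold and 19.8-fold higher. The groups did not overlap, and the difference was 5.41 ± 1.78 on the log2 CPM scale.

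The transcription factors had the lowest pelvic medians of the 10 genes per length. *Elf3* (chr1:135253575-135258568) encodes an ETS factor of differentiated epithelia, and it was at 0.517, 7.65 and 2.63 CPM in the pelvic tumors against 0.0729, 0.106 and 0.132 CPM in the adrenal tumors of mice 23, 36 and 84. *Trp63* (chr16:25683763-25892102) encodes p63, the factor of basal and squamous cells, and it was the 1 gene whose groups overlapped, at 0.795, 8.48 and 1.26 CPM against 1.24, 0.234 and 0.0659 CPM. In mouse 23 *Trp63* was lower in the pelvic tumor, by 0.62 on the log2 CPM scale, where the adrenal tumor had 102 counts and the pelvic one 40. The differences were 4.05 ± 1.71 for *Elf3* and 2.69 ± 2.94 for *Trp63*. In CPM per kilobase of exon, which allows levels of different genes to be compared, the pelvic medians ran from 13.3 for *Krt8*, 9.36 for *Krt19* and 5.79 for *Krt18* over 3.13 for *Krt5* and 3.12 for *Epcam* to 1.19 for *Elf3* and 0.150 for *Trp63*. The ranges of neighbours in this order overlapped throughout, so the order holds for the medians only.

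**Figure D1:**
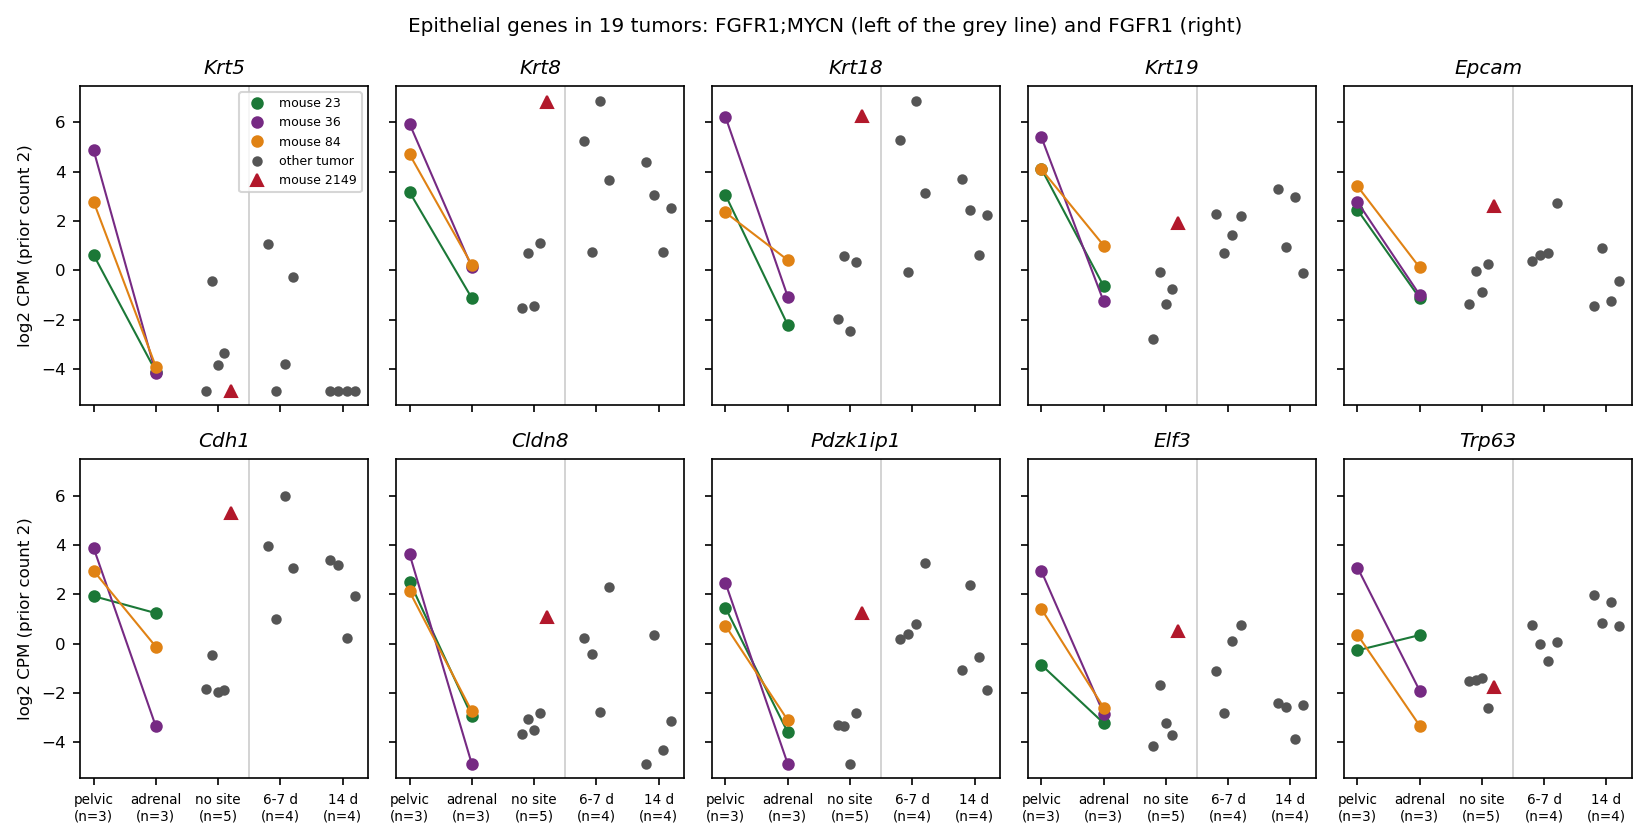
Level of each of the 10 genes (log2 CPM with a prior count of 2, y axis) in the 19 tumors, by group (x axis). Coloured points joined by a line are the pelvic and adrenal tumors of mice 23, 36 and 84, the triangle is mouse2149 and grey points are the other tumors. For 9 of the 10 genes the 3 pelvic points lie above the 3 adrenal points, and several *FGFR1* tumors reach or pass the pelvic level of *Krt8*, *Krt18* and *Cdh1*.

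Counted over the genes, 9 of the 10 were higher in the pelvic tumor of all 3 mice and 9 of the 10 had every pelvic value above every adrenal value. Of the 17901 genes with at least 10 counts in 3 of the 6 tumors, 15.6% were higher in all 3 mice and 4.16% had no overlap in that direction. The contrast is the one on which the genes were chosen, and nothing is read from these shares. The median of the 10 mean differences was 4.84 on the log2 CPM scale, where the median over all genes tested was -0.01. When edgeR's quasi-likelihood test was adjusted after Benjamini and Hochberg, 0 genes of the whole table passed an adjusted p of 0.05 (0.0% of those tested), 948 had an unadjusted p under 0.05 and DESeq2 called 233. With the mouse as a block, since both tumors of a pair came from the same animal, edgeR called 15 genes (0.0838%). These are counts over the whole table and are not read for the 10 genes.

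The size of the difference varied among the mice. The 10 genes summed to 264 CPM in the pelvic tumor of mouse 36, against 2.79 CPM in its adrenal tumor. The sums were 55.2 against 5.45 CPM in mouse 23 and 83.4 against 6.78 CPM in mouse 84. Mouse 36 held the highest pelvic value for 9 of the 10 genes. The median difference of the 10 genes was 4.51, 6.95 and 3.76 on the log2 CPM scale in mice 23, 36 and 84, and the spread of the 3 pelvic values of a gene was widest for *Krt5* (4.25 on the same scale) and narrowest for *Epcam* (0.96).

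**Figure D2:**
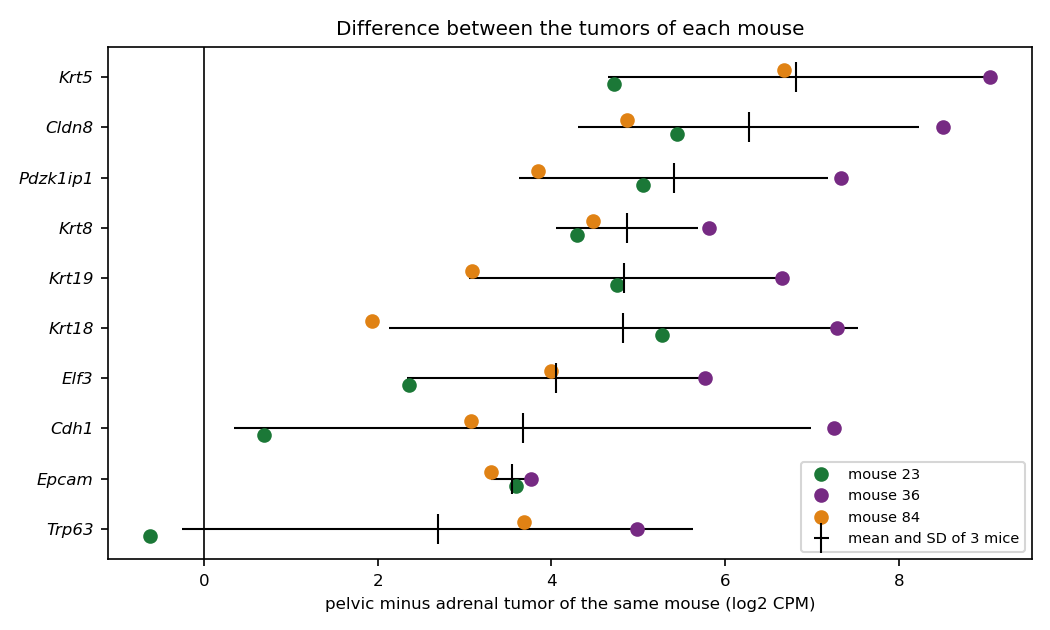
Pelvic minus adrenal difference within each mouse (log2 CPM, x axis) for the 10 genes (y axis), with 1 coloured point a mouse and the mean and SD of the 3 mice in black. Mouse 36 has the largest difference for every gene, and *Trp63* in mouse 23 is the only point below 0.

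Other epithelial genes, from lists that were also written with earlier results known, were compared in the same way. Of 24 epithelial regulators and surface proteins, 19 were higher in the pelvic tumor of all 3 mice and 1 was lower, with a median difference of 1.85 over the list. *Tmprss2*, a membrane serine protease, was at 3.24, 69.0 and 11.0 CPM in the pelvic tumors of mice 23, 36 and 84 and at 0.0243, 0.0851 and 0.576 CPM in the adrenal ones. *Esrp1*, a splicing factor of epithelial cells, was at 1.03, 6.91 and 3.71 CPM against 0.0364, 0 and 0.280 CPM. The protease *Prss8* differed by 4.54, and the abundant *Cd24a*, *Mal2* and *Spint2* differed by 0.57, 0.38 and 1.11.

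Of 22 epithelial junction genes, 12 were higher in the pelvic tumor of all 3 mice and 0 were lower in all 3, with a median difference of 0.79. The claudins *Cldn4* (5.87) and *Cldn7* (4.21), the junction scaffold *Tjp3* (2.82) and the desmosomal linker *Ppl* (2.21) differed most. The most abundant junction genes, *Cxadr*, *Jup*, *Dsg2* and *Dsc2*, differed by 0.29, -0.28, 0.16 and -0.13. Among these named genes, large differences stood in those low in the adrenal tumors, such as *Cldn4* at 0.0213 to 0.0988 CPM, and small ones in genes that all tumors expressed. Other genes of the list that were low in the adrenal tumors differed less.

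Among 14 further keratins, 8 were higher in all 3 mice and 0 lower, with a median difference of 0.90. *Krt7*, a keratin of ducts and urothelium, was at 4.79, 79.9 and 3.69 CPM in the pelvic tumors of mice 23, 36 and 84 against 0.789, 1.34 and 1.05 CPM. *Krt15*, a basal keratin, was at 0.219, 32.4 and 7.19 CPM against 0.0243, 0 and 0.0659 CPM, and *Krt20*, a keratin of umbrella and gut cells, at 0.854, 9.20 and 2.34 CPM against 0.0607, 0.0213 and 0.115 CPM. *Krt10*, a keratin of differentiated epidermis, was higher in all 3 mice by a small margin, with a difference of 0.14 ± 0.08. Of 13 basal squamous genes 6 were higher in all 3 mice and 1 lower, with a median of 1.23, and the largest differences were those of *Krt15* and of *Serpinb5*, a serpin of basal epithelium, at 0.278, 3.14 and 1.21 CPM against 0.0121, 0.0425 and 0.0329 CPM.

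The repressors that bind the E-box shown above had no common direction between pelvic and adrenal tumors. Of 9 regulators of epithelial to mesenchymal transition and mesenchymal genes, 0 were higher and 0 lower in all 3 mice, and the median difference was 0.05. *Zeb1* was at 67.8, 100 and 122 CPM in the pelvic tumors of mice 23, 36 and 84 and at 124, 123 and 118 CPM in their adrenal tumors. *Zeb2* was at 45.0, 74.3 and 77.5 CPM against 52.3, 73.7 and 61.3 CPM, and *Snai1*, the lowest of the list in difference, at 0.338, 0.776 and 1.77 CPM against 1.14, 1.51 and 1.65 CPM.

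**Figure D3:**
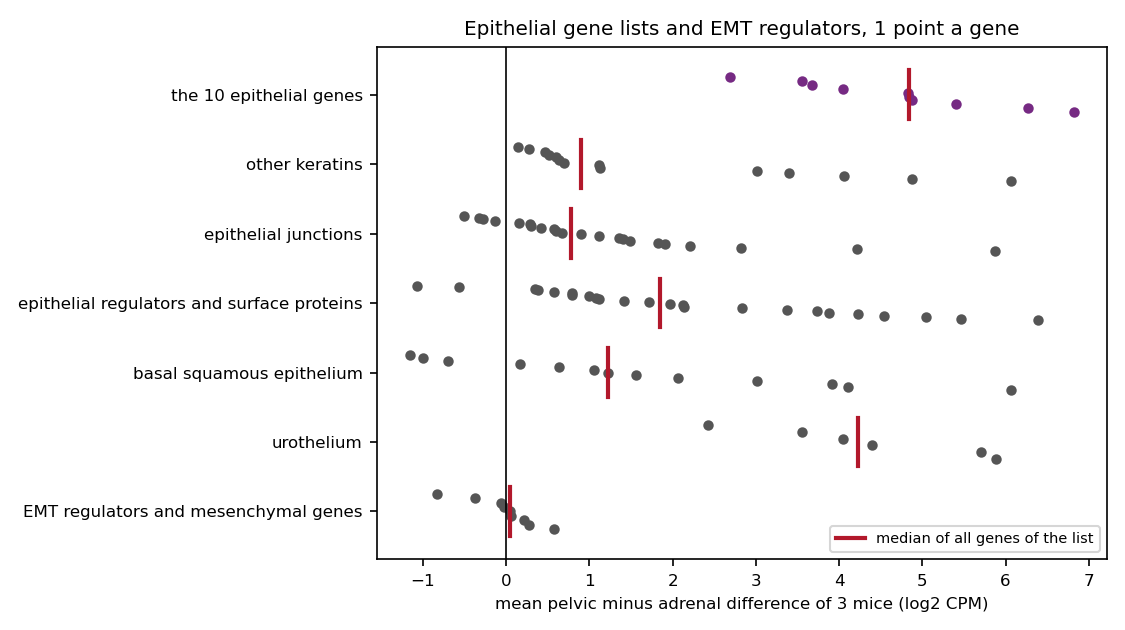
Mean pelvic minus adrenal difference of the 3 mice (log2 CPM, x axis) for each gene (point) of the 10 epithelial genes and of 6 further lists (y axis), with the median of each list in red. The 10 epithelial genes reach 6.82 and the regulators 6.39, while the 9 EMT regulators and mesenchymal genes lie between -0.83 and 0.58.

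Some markers of neighbouring organs were high in pelvic tumors, and they were not the same in each mouse. All 6 urothelial genes were above 1 CPM in the pelvic tumor of mouse 36, where they summed to 443 CPM, with the uroplakin *Upk1b* at 121 CPM and *Upk3a* at 86.5 CPM. They summed to 9.91 CPM in the pelvic tumor of mouse 23, with 5 of 6 genes above 1 CPM. The sum was 2.69 CPM with 1 of 6 in that of mouse 84, against 1.47 to 2.06 CPM in the adrenal tumors. Urothelial genes were not limited to pelvic tumors. The *FGFR1* tumor T11 had 6 of 6 above 1 CPM, with a sum of 30.2 CPM, and T3 had 5 of 6, with 8.35 CPM. The median sum of the 8 *FGFR1* tumors was 4.88 CPM. Of 12 intestinal genes 10 were above 1 CPM in the pelvic tumor of mouse 84, which summed to 124 CPM and had the goblet cell genes *Zg16* at 31.2 CPM and *Muc2* at 18.5 CPM, whereas those of mice 23 and 36 summed to 4.93 and 8.17 CPM and the adrenal tumors to 10.4 to 12.5 CPM. The 5 smooth muscle genes summed to 75.9, 569 and 130 CPM in the pelvic tumors of mice 23, 36 and 84 and to 45.5, 10.8 and 25.3 CPM in the adrenal ones.

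The water channel *Aqp2* was at 15.1 and 27.1 CPM in the pelvic tumors of mice 23 and 36 and at 0.0484 CPM in that of mouse 84, against at most 0.0850 CPM in the adrenal tumors. The 14 kidney genes, *Aqp2* included, summed to 26.7, 42.6 and 22.1 CPM in the pelvic and 16.9 to 20.3 CPM in the adrenal tumors. Their median difference was 0.12, *Cubn*, a receptor of the proximal tubule, was lower in all 3 mice (-1.35), and *Slc12a3*, a transporter of the distal tubule, had a difference of -1.01. *Akr1b7*, an aldose reductase-like enzyme that mice make in the adrenal cortex and the vas deferens, was at 527 and 866 CPM in the pelvic tumors of mice 23 and 36 and at 0.177 CPM in that of mouse 84. The steroidogenic *Cyp11b1* did not accompany it, at 0.0397, 1.90 and 0.0161 CPM in these 3 tumors against 0.0607, 309 and 59.0 CPM in the adrenal tumors. Of the 9 adrenal cortex genes, *Akr1b7* included, 0 were higher and 5 lower in the pelvic tumor of all 3 mice. Their mean differences ran from -5.96 to 0.85. In the pelvic tumors of mice 23, 36 and 84, 2, 6 and 1 of the 9 were above 1 CPM. The 5 mesothelial genes summed to 4.73, 21.6 and 9.08 CPM in the pelvic against 2.11 to 5.47 CPM in the adrenal tumors, with *Upk3b* at 19.2 CPM in mouse 36 and *Wt1* at 5.06 CPM in mouse 84, and their median difference was 0.16. Genes of male glands and the female tract summed to 10.9, 14.5 and 25.4 CPM against 17.1 to 64.3 CPM. The part of such tissue in the values of the 10 genes was not tested.

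Posterior *Hox* genes, which mark the tail end of the body axis, were also high in the pelvic tumors. The 11 genes summed to 60.3, 41.6 and 64.1 CPM in the pelvic tumors of mice 23, 36 and 84 and to 6.24, 0.213 and 0.379 CPM in the adrenal tumors, and 9 of the 11 were higher in all 3 mice. *Hoxc10* was at 12.7, 13.5 and 24.8 CPM against 0.716, 0 and 0.0494 CPM. The tumors of mouse17 and mouse2138, which had no site label, also had 54.1 and 31.8 CPM of these genes, and their sums of the 10 epithelial genes were 7.15 and 5.78 CPM, below the 55.2 to 264 CPM of the pelvic tumors.

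**Figure D4:**
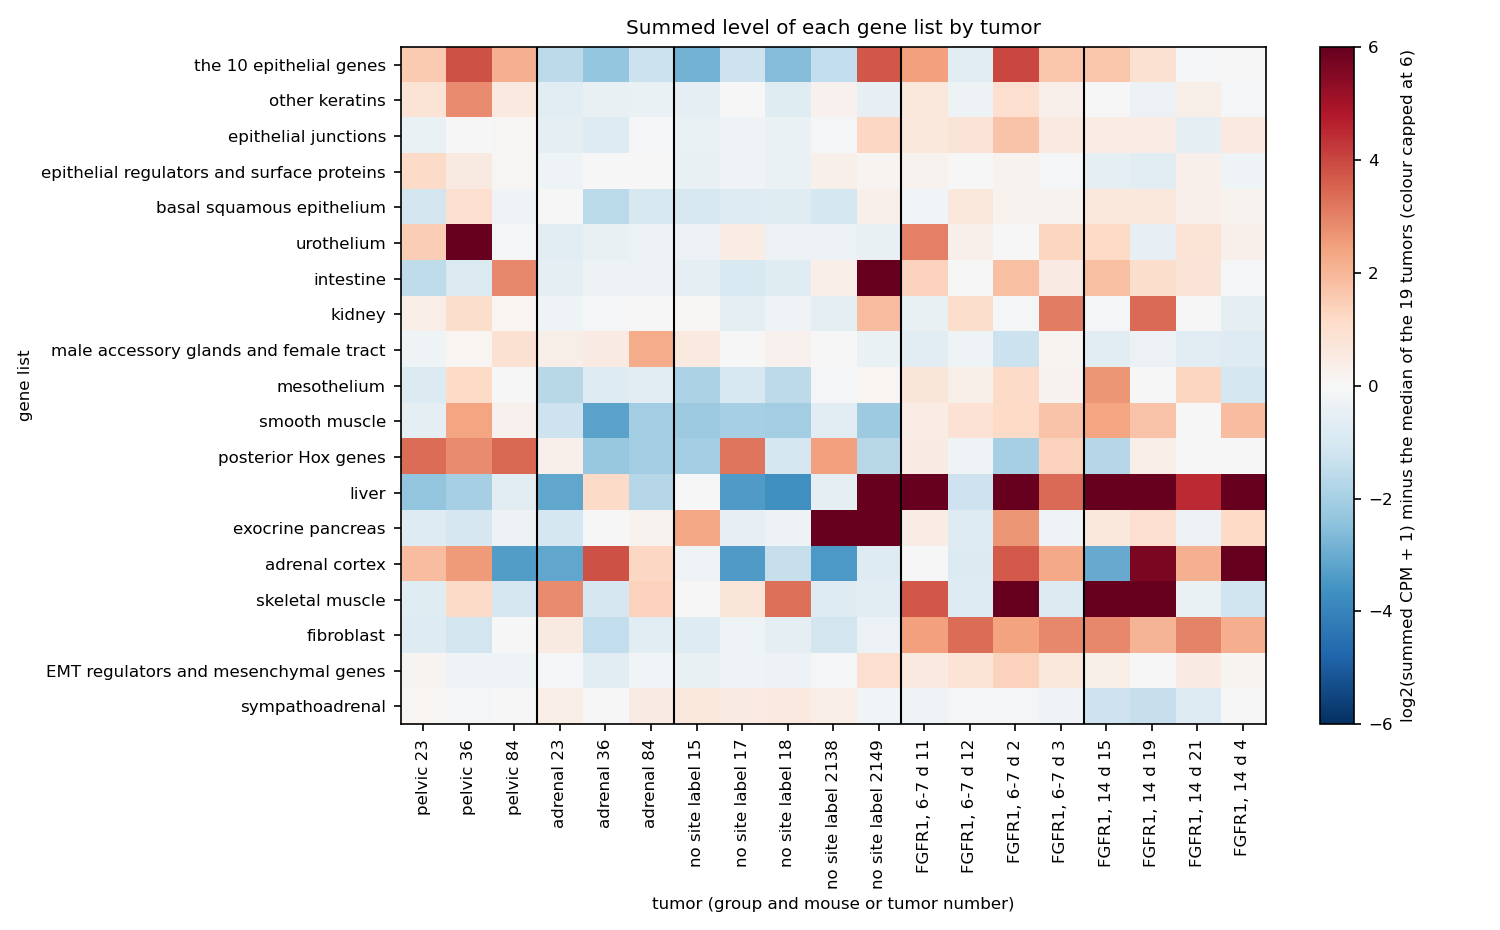
Summed level of the 10 epithelial genes and of 18 other gene lists (rows) in each of the 19 tumors (columns), as log2(summed CPM + 1) minus the median of the 19 tumors, with red above and blue below that median and colours capped at 6. The top row is high in the 3 pelvic tumors, in mouse2149 and in several *FGFR1* tumors, next to different organ lists in each. These include urothelium in pelvic 36, intestine in pelvic 84, and liver and pancreas in mouse2149. They also include liver in *FGFR1* T2, T11 and T15, and urothelium in T11.

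Across all 19 tumors, high levels were not particular to the tumors labelled pelvic. Compared with the other 7 *FGFR1;MYCN* tumors (3 adrenal and 4 with no site label, without mouse2149), all 3 pelvic tumors were higher for 9 of the 10 genes. With the *FGFR1* tumors and mouse2149 included, this held for *Krt19* alone, at 17.1 CPM or more in the pelvic and at most 9.79 CPM in the other 16 tumors. The share of all genes was not counted for these comparisons. The adrenal tumors in them were used to choose the genes, so nothing is read from these counts of genes. For 4 genes the highest tumor was an *FGFR1* tumor, namely T2 for *Krt8* (118 CPM), *Krt18* (119 CPM) and *Cdh1* (62.6 CPM) and T3 for *Pdzk1ip1* (9.58 CPM). The other 6 genes were highest in a pelvic tumor.

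Genes that followed the mean log2 CPM of the epithelial genes most closely over 18 tumors (without mouse2149) were taken from 18312 other genes with at least 10 counts in 8 tumors by Pearson's r, as a description without a test. *Tmprss2* came first (r = 0.94), and among the next were the secreted protein gene *Wfdc2* (0.93), *Cldn7* (0.90) and *Cldn4*, *Prss8* and *Ildr1* (0.89 each). *Krt20* and *Bcl2l14* (0.88 each) and the kinase gene *Ripk4* (0.87) were also among the 10 highest, and with mouse2149 included r of these genes lay between 0.85 and 0.94. These points share the libraries and their scaling, and *Wfdc2*, *Ildr1*, *Bcl2l14* and *Ripk4* were in none of the lists.

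The genotype comparison did not use the pelvic or adrenal tumors and therefore could be tested. The *FGFR1;MYCN* tumors came from mice of 18 to 21 days and the *FGFR1* tumors from mice of 6, 7 or 14 days, so genotype and age cannot be told apart in it. The labels give no site for the tumors of either group, so a difference of site cannot be told apart from genotype either. The 5 *FGFR1;MYCN* tumors with no site label were set against the 8 *FGFR1* tumors with edgeR's quasi-likelihood test, adjusted by Benjamini-Hochberg over the 18692 genes with at least 10 counts in 5 tumors, of which 9 were epithelial genes. *Trp63* alone of them was lower in the *FGFR1;MYCN* tumors, where 19.2% of all genes tested were. It was at 0.312, 0.326, 0.349, 0.129 and 0.263 CPM in mouse15, mouse17, mouse18, mouse2138 and mouse2149 and between 0.580 and 3.95 CPM, with a median of 1.64 CPM, in the *FGFR1* tumors. The groups did not overlap, and the log2 fold change was -2.70 ± 0.50 (SE, adjusted p = 0.00128).

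Whether *Krt8*, *Krt18*, *Krt19*, *Cdh1* and *Pdzk1ip1* passed in edgeR's test turned on the library of mouse2149. *Krt8* was at 0.312, 1.61, 0.331 and 2.13 CPM in mouse15, mouse17, mouse18 and mouse2138 and at 114 CPM in mouse2149, against 1.62 to 118 CPM with a median of 10.5 CPM in the *FGFR1* tumors. *Cdh1* was at 0.245, 0.696, 0.221 and 0.237 CPM in the same 4 mice and at 39.7 CPM in mouse2149, against 1.16 to 62.6 CPM with a median of 8.75 CPM. For *Cdh1* the 4 mice lay below all 8 *FGFR1* tumors and mouse2149 lay among the highest, and the same was seen for *Pdzk1ip1*, at 0.0669, 0.0652, 0 and 0.108 CPM against 0.239 to 9.58 CPM, with 2.34 CPM in mouse2149. With all 5 tumors the log2 fold change of *Cdh1* was -0.66 ± 1.34 (adjusted p = 0.745 by edgeR) and that of *Pdzk1ip1* -2.20 ± 1.27 (adjusted p = 0.207 by edgeR). In the same fit it was -0.0 ± 1.4 for *Krt8* (adjusted p = 0.999 by edgeR), -0.44 ± 1.48 for *Krt18* (0.848) and -1.82 ± 0.81 for *Krt19* (0.103).

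Without mouse2149, 6 epithelial genes were lower in the *FGFR1;MYCN* tumors, of 7 that still passed the filter, beside 26.8% of all 18603 genes tested. The log2 fold changes were -4.46 ± 1.28 for *Krt8* (adjusted p = 0.0123), -4.85 ± 1.45 for *Krt18* (0.0149) and -3.08 ± 0.76 for *Krt19* (0.00534), all by edgeR. The values were -5.22 ± 1.13 for *Cdh1* (adjusted p = 0.00257), -5.30 ± 1.25 for *Pdzk1ip1* (0.00405) and -2.66 ± 0.58 for *Trp63* (0.00265), whereas *Epcam* did not pass, at -1.17 ± 0.73 (0.211). A gene that passed the filter only through the *FGFR1* tumors had to differ. *Pdzk1ip1*, with at most 5 counts in each of the 4 *FGFR1;MYCN* tumors, was such a gene and is not counted as support in this fit. The fit was therefore repeated with no filter, where all 10 were tested and the same 6 passed, beside 18.1% of 28283 genes. There *Cldn8* (-3.72 ± 1.48, adjusted p = 0.0745 by edgeR), *Elf3* (-2.08 ± 1.04, 0.156) and *Krt5* (-0.79 ± 1.69, 0.750) did not pass.

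Liver transcripts moved with this comparison. All 9 liver genes were above 1 CPM in 7 of the 8 *FGFR1* tumors, and they summed to 95100 CPM in T2, 35200 CPM in T15, 24900 CPM in T11, 14200 CPM in T19 and 5980 CPM in T4. T21, T3 and T12 had 954, 452 and 17.5 CPM, and the 4 *FGFR1;MYCN* tumors other than mouse2149 had 2.35 to 42.5 CPM. *Krt18* was at 119, 13.1, 38.8, 5.36 and 4.77 CPM in T2, T15, T11, T19 and T4 and at 1.50, 8.66 and 0.923 CPM in T21, T3 and T12. The fit was also run without the 6 tumors of 1000 CPM or more of liver genes, which left 4 against 3, with T21 and T3 still above the *FGFR1;MYCN* tumors in liver genes, and 21.4% of 18432 genes were lower. *Krt19* (-3.19 ± 0.71, adjusted p = 0.0104 by edgeR), *Cdh1* (-3.39 ± 0.75, 0.0100) and *Trp63* (-2.56 ± 0.55, 0.00892) passed in these tumors. *Krt8* (-2.21 ± 0.94, adjusted p = 0.106 by edgeR) and *Krt18* (-2.20 ± 0.98, 0.120) did not pass. Their fold changes were smaller here than the -4.46 and -4.85 of the fit without mouse2149 alone. *Pdzk1ip1* (-5.93 ± 1.15, adjusted p = 0.00553 by edgeR) met the filter through the *FGFR1* tumors alone, with at most 5 counts in each of the other 4, and is not counted as support.

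Kidney transcripts also differed among the *FGFR1* tumors. All 14 kidney genes were above 1 CPM in T3 and T19, which summed to 177 and 223 CPM, and the other 6 summed to at most 43.0 CPM. *Pdzk1ip1* was highest in these same tumors, at 9.58 and 5.15 CPM, and between 0.239 and 1.72 CPM in the other 6. *Cldn8* was at 4.87 CPM in T3, 1.24 CPM in T19 and 1.14 CPM in T11, and at most 0.709 CPM in the remaining 5. Fibroblast genes, 6 of 6 above 1 CPM in every tumor, summed to 4730 to 11900 CPM in the *FGFR1* and 540 to 966 CPM in the 5 *FGFR1;MYCN* tumors. The part of liver, kidney and other tissue in the genotype differences was not tested.

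**Figure D5:**
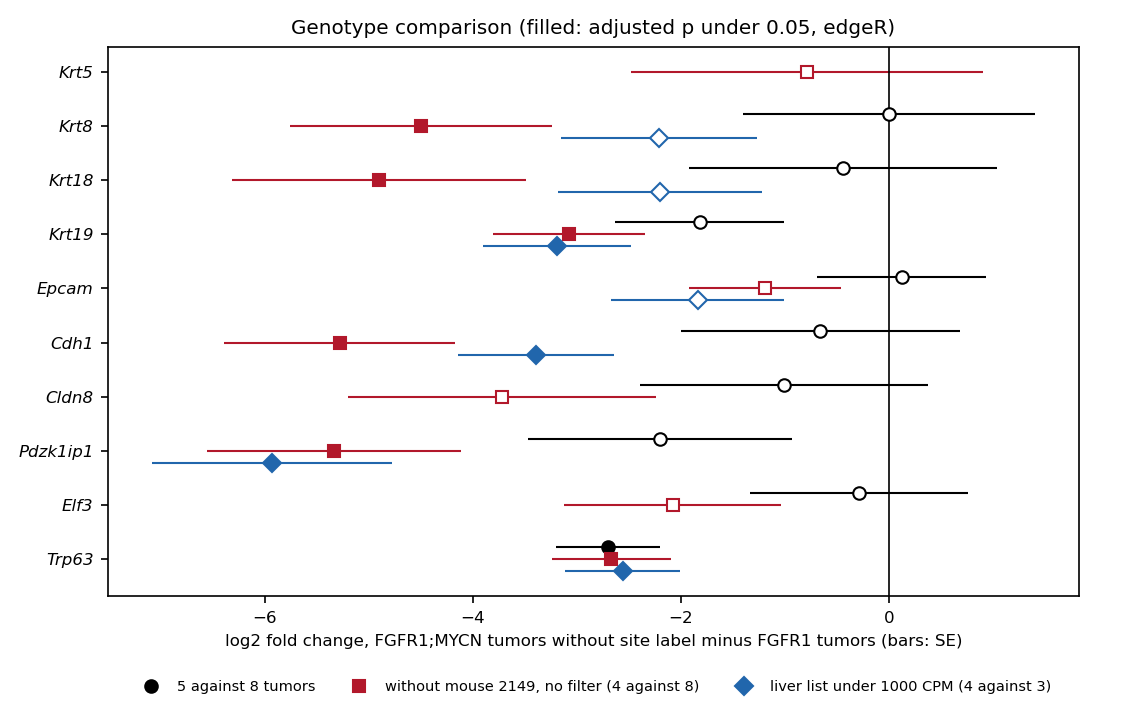
Log2 fold change (x axis, bars are SE) of the 10 genes (y axis) in *FGFR1;MYCN* tumors with no site label minus *FGFR1* tumors, for all 5 against 8 tumors (black), without mouse2149 and with no filter (red), and for tumors with under 1000 CPM of liver genes (blue). Filled symbols have an adjusted p under 0.05 by edgeR: *Trp63* alone in black, 6 genes in red and 4 in blue, of which *Pdzk1ip1* met the filter of the blue fit through the *FGFR1* tumors alone.

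The other epithelial lists also depended on mouse2149. With all 5 tumors, 2 of 22 regulators and surface proteins were lower (*Klf5*, -2.11 ± 0.42, adjusted p = 0.00198 by edgeR, and *Erbb3*, -1.83 ± 0.47, 0.00976), and the list's median was 0.14 where that of all genes was 0.01. Without mouse2149, 12 of 21 were lower and 0 higher, with a median of -1.58. The shares of all genes that were lower were 19.2% and 26.8% in these fits. Of 22 junction genes 3 were lower and 1, the desmosomal *Pkp1* (2.06 ± 0.45, adjusted p = 0.00360 by edgeR), was higher with all 5 tumors, and 12 were lower and 1 higher without mouse2149. Among the EMT regulators *Zeb2* (-1.97 ± 0.19, adjusted p = 1.29e-05 by edgeR), *Snai2* and *Twist2* were lower and *Twist1* was higher, with or without that tumor. The mesenchymal *Vim* was lower only with all 5 (-0.73 ± 0.25, adjusted p = 0.0352 by edgeR) and *Fn1* only without mouse2149 (-2.65 ± 0.58, 0.00265).

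The age comparison set the 4 *FGFR1* tumors of 14 days against the 4 of 6 or 7 days, which are the same tumors that entered the genotype comparison. In edgeR's test 0 of 18623 genes passed an adjusted p of 0.05 (0.0%), 3116 had an unadjusted p under 0.05 and DESeq2 called 1363, and 8 of the 10 epithelial genes were among those tested. *Trp63* was at 3.95, 1.78, 3.24 and 1.61 CPM in T15, T19, T21 and T4 at 14 days and at 1.67, 0.963, 0.580 and 1.00 CPM in T11, T12, T2 and T3 at 6 or 7 days. Its log2 fold change of 1.41 ± 0.45 did not pass (adjusted p = 0.179 by edgeR), with 3 of the 4 older tumors above all younger ones. *Epcam* was at 0.329, 1.84, 0.392 and 0.702 CPM at 14 days against 1.28, 1.51, 1.59 and 6.57 CPM, with a log2 fold change of -1.67 ± 0.74 (adjusted p = 0.302 by edgeR). *Krt5* had 0 counts in all 4 tumors of 14 days, which allows up to 3 counts in each, and 142, 0, 2 and 65 counts in T11, T12, T2 and T3.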

How the data were processed

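RNA-seq libraries of 19 tumors were analysed. The authors estimated transcript abundance with kallisto 0.44.0 on combined mouse GRCm38 and human GRCh38 transcripts and summed it to genes with tximport, which gave the deposited estimated counts (35825 genes), and they deposited log2-scale variance-stabilized values made with DESeq2 1.32.0 (R 4.2.2), per the submitters' processing notes and the study's methods. No strand option was given in the sources used here. Depth was 40010738 to 75882643 counts per tumor, so that a floor of 3 counts was 0.0364 to 0.079 CPM, and intervals and floors cover counting error only. The closest replicate libraries had a chi-square of 17.14 for each gene, where sampling noise gives about 1, and 0 columns belonged to no sample.

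Estimated counts were rounded to whole numbers and scaled by TMM factors (edgeR 4.0.16, R 4.3.3), and levels are CPM or log2 CPM with a prior count of 2. Tests were edgeR quasi-likelihood with Benjamini-Hochberg adjustment over all genes with at least 10 counts in 3 (location), 5 (genotype) or 4 (age) tumors, at a threshold of 0.05, with DESeq2 1.42.0 as an alternative. Other alternatives were size factors of DESeq2, no filter, each tumor left out and other sets of tumors. The fits without filter and mouse2149, with tumors of low liver signal, and with both tumors of a mouse left out were added after seeing the data. The scripts were tested on simulated data. Both tumors of a pair came from the same animal, so the mouse numbers pair them, and their deviations from the group means correlated at 0.26, 0.2 and 0.29 within mice 23, 36 and 84 and at -0.24 to -0.06 between mice.

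The 10 genes and all gene lists were chosen with earlier results of these data known. All 10 were named. Of each other list, up to 4 genes of the highest pelvic level and up to 4 of the largest difference could be named, with those called in a test where 5 or fewer were, and the 10 genes of the highest correlation, of which some items are not reported here. Gene positions came from GENCODE on GRCm38.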

Additional observations from a re-analysis of the deposited data

Results flagged for a closer look

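Of 29 groups of 4 or 5 values of the 10 genes, 4 held a tumor far from the rest of its group (Dixon's test on log2 CPM), and chance alone gives about 1 in 20 groups. The pelvic and adrenal groups were not tested in this way. *Cdh1* in the tumor of mouse2149 was at 5.31 log2 CPM, a gap of 0.79 of the range of the 5 *FGFR1;MYCN* tumors with no site label. *Cldn8* in the same tumor was at 1.10 log2 CPM, a gap of 0.82 of that range, and 9 liver genes summed to 140000 CPM and 11 exocrine pancreas genes to 179000 CPM there. *Epcam* in the *FGFR1* tumor T3, of 7 days, was at 2.72 log2 CPM, a gap of 0.87 of the range of the 4 tumors of 6 or 7 days, and this tumor also had 177 CPM of kidney genes. *Elf3* in the *FGFR1* tumor T21 was at -3.87 log2 CPM, a gap of 0.89 of the range of the 4 tumors of 14 days. The part of other tissue in these values was not tested.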

How the results depend on the processing

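The count of genes that passed between pelvic and adrenal tumors was 0 and became 14 with no filter, 233 with DESeq2 and 15 with the mouse as a replicate block, and 0 to 4 when 1 tumor or mouse was left out (4 without adrenal 23 or without mouse 84, 2 without pelvic 84). For genotype, 2861 to 4984 genes were lower when 1 tumor was left out. Of the 10 genes, 1 was lower in the *FGFR1;MYCN* tumors, against 2 with DESeq2, 0 with all 11 *FGFR1;MYCN* tumors, 6 without filter and mouse2149, 4 among tumors of low liver signal, and 1 to 6 when 1 tumor was left out (6 without mouse2149). In the low liver fit and the filtered fit without mouse2149, *Pdzk1ip1* was among them but met the filter through the *FGFR1* tumors alone. The age comparison gave 0 genes, 1363 with DESeq2 and 0 to 47 when 1 tumor was left out (47 without T4), and DESeq2 called 1 of the 10 genes, *Trp63* (adjusted p = 0.0377). The count of the 10 genes with no pelvic and adrenal overlap was 9 to 10.

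Genotype fold changes on the log2 scale turned direction in some fits. With 14-day *FGFR1* tumors only, *Krt18* was at 1.51, *Cdh1* at 0.54 and *Krt8* at 1.49, the last from a main value of -0.0. *Krt18* was at 0.78 with DESeq2. With 11 *FGFR1;MYCN* tumors, *Krt19* was at 0.87, *Cldn8* at 1.16 and *Elf3* at 1.34. *Epcam* turned to -0.50 with 6- or 7-day tumors only, to -1.19 without filter and mouse2149 and to -1.84 among tumors of low liver signal. With 1 tumor left out, the ranges were -4.46 to 1.02 for *Krt8*, -4.85 to 0.76 for *Krt18*, -1.17 to 0.82 for *Epcam*, -5.22 to 0.30 for *Cdh1* and -0.48 to 0.02 for *Elf3*, and for age -2.84 to 0.32 for *Pdzk1ip1*. The cause of these changes was not tested. Low counts limit *Krt5*, *Cldn8* and *Elf3*, which failed the filter in some fits.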
